A study of Mus musculus with 15 samples.

Results

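Mitochondrial ribosomal proteins are the nuclear-encoded proteins of the mitochondrial ribosome, taken here as every gene symbol that starts with Mrpl or Mrps followed by a digit and reaches a level of at least 1 CPM (reads of a gene as a share of its library, scaled to a common total) in at least 3 of 15 libraries. Of the 23420 symbols counted, 76 match the name and all 76 pass. The mitochondrial ribosome translates the few proteins that the mitochondrial genome still encodes, all of them core subunits of the respiratory chain and ATP synthase. Its RNA comes from the mitochondrial genome, but all of its proteins are made in the cytosol from nuclear genes and imported. In the small intestine, crypt cells divide quickly and build ribosomes of both kinds, while villus enterocytes depend on mitochondrial respiration for absorption. The 76 genes hold 26 proteins of the small subunit, which reads the messenger RNA, and 49 of the large subunit, which joins amino acids. The remaining symbol, Mrps36, carries a historical name: its product is now known as a subunit of the ketoglutarate dehydrogenase complex. The counted symbols hold none with the mt- prefix of mitochondrial genome genes, so messages of that genome were not analysed here.

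The material was primary ileal organoids of C57BL/6 mice at passage 2, that is, epithelium that had been cultured from isolated crypts in Matrigel with IntestiCult medium. On culture day 14 they were freed of Matrigel, opened to expose the lumen and kept for 24 h in DMEM with 0.2% BSA holding a mixture of bile acids or vehicle. The groups were M90 and M10, which received a mixture modelled on mouse bile acids with 90% or 10% of 12α-hydroxylated bile acids, H90 and H10, which received a mixture modelled on human bile acids with the same shares, and Vehicle. Each group had 3 libraries, a, b and c, and the labels used here give no dose or composition of the mixtures. Nothing states whether the 3 libraries came from separate mice or cultures, so p-values measure only the spread between these libraries, which may be technical.

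Libraries held 11245807 to 28989526 counts, and every one of the 76 genes reached 1 CPM in all 15 of them. The epithelial genes Epcam and Cdh1 had at least 1466 and 1190 CPM in every library. In contrast, 6 immune markers summed to 3.83 to 8.85 CPM and 6 fibroblast markers to 3.31 to 15.7 CPM. Among the immune markers, Cd3e and Cd79a were each at 0 in 12 libraries, while Itgam had 2.83 to 7.38 CPM. The labels name no batch, but libraries fell into 2 sets by the liver transcript Mup20, above 10 CPM in Vehicle, H10 and H90 a (set 1) and below it in H90 b, H90 c, M10 and M90 (set 2). The 7 liver markers summed to 62.9 to 91.2 CPM in M90, 64.9 to 70.9 CPM in M10, 75 to 224 CPM in H90, 177 to 262 CPM in H10 and 180 to 221 CPM in Vehicle. M90 and M10 therefore share no library set with Vehicle or H10, and only H90 bridges the sets. In set 1, H90 is the single library H90 a. That library had 14142 CPM of Rn45s, a ribosomal RNA precursor, against 1739 to 3215 CPM in all others. Counts within a set or with the set as a term in the model are given beside the results below, and for M10 and M90 against Vehicle the named ribosomal genes whose call the term ended are listed. The other gene lists were not refitted with it.

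Summed over the 76 genes, the messages took 0.318 ± 0.00968% of all counts in M90, 0.229 ± 0.00603% in M10, 0.377 ± 0.0051% in H90, 0.305 ± 0.00348% in H10 and 0.384 ± 0.0204% in Vehicle (SD, n = 3 each). M10 lay below all other groups, H10 and M90 lay between M10 and Vehicle, and H90 overlapped Vehicle. In CPM scaled by TMM, a correction for composition, the 49 large subunit genes summed to 2361 ± 49.2 in M90, 1818 ± 41.2 in M10, 2518 ± 32.8 in H90, 2200 ± 40.8 in H10 and 2499 ± 146 in Vehicle. The 26 small subunit genes summed to 878 ± 23.7 CPM in M90, 699 ± 8.18 CPM in M10, 1030 ± 27.8 CPM in H90, 859 ± 7.45 CPM in H10 and 1023 ± 46.5 CPM in Vehicle. Large and small subunit messages thus moved in the same order of groups. The ratio of large to small subunit CPM was 2.69 ± 0.0224 in M90, 2.60 ± 0.0309 in M10, 2.45 ± 0.0368 in H90, 2.56 ± 0.0505 in H10 and 2.44 ± 0.0496 in Vehicle. Ratios in M90 (2.66 to 2.71), M10 (2.58 to 2.64) and H10 (2.51 to 2.61) lay above every Vehicle library (2.39 to 2.48), while those in H90 (2.41 to 2.48) overlapped Vehicle. These sums are descriptions, and bulk libraries cannot tell apart fewer cells of a type and less RNA per cell.

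**Figure D1:**
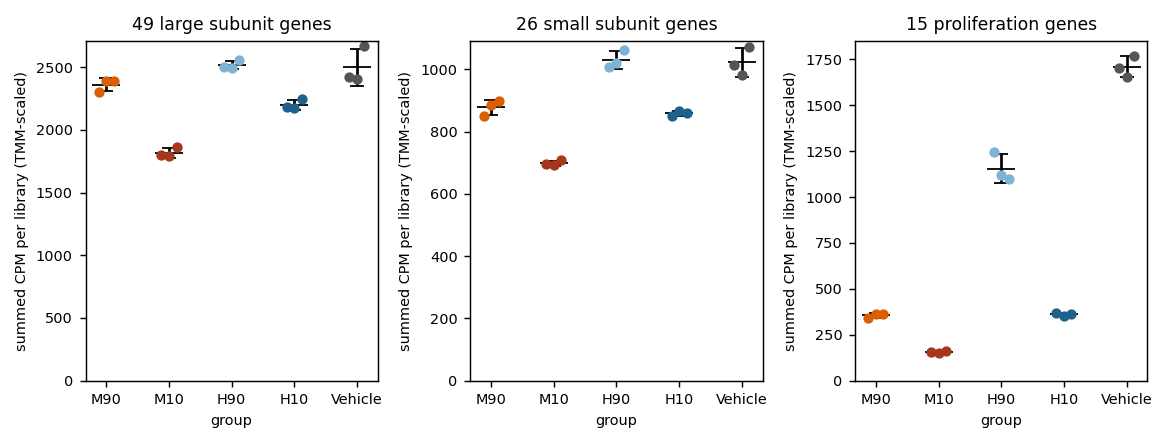
Summed TMM-scaled CPM per library (vertical axes, from 0) of the 49 large subunit genes, the 26 small subunit genes and 15 proliferation genes, by group (horizontal axes), with each library as a point and mean ± SD as a bar. M10 is lowest in all 3 panels, and H90 overlaps Vehicle for both subunits but not for the proliferation genes.

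Markers of dividing and of differentiated cells moved beside the ribosomal genes. All 15 genes of a proliferation list fell in each mixture, with a median log2 change against Vehicle of -2.59 in M90, -4.04 in M10, -0.61 in H90 and -2.54 in H10. Their summed level was 338 to 364 CPM in M90, 153 to 162 CPM in M10, 1096 to 1244 CPM in H90, 353 to 367 CPM in H10 and 1656 to 1771 CPM in Vehicle. Mki67, a marker of dividing cells, had 50.1, 61.4 and 61.6 CPM in M90, 9.61, 4.53 and 9.37 CPM in M10, 219, 202 and 186 CPM in H90, 54.5, 46.7 and 47.2 CPM in H10, and 292, 296 and 280 CPM in Vehicle. No group overlapped Vehicle for Mki67. In H90 the proliferation genes fell while the sums of the ribosomal genes overlapped Vehicle. Of 6 stem cell markers, 5 fell in M90, 6 in M10, 5 in H90 and 6 in H10, with medians of -1.88, -2.20, -0.77 and -1.83. Of 9 ileal enterocyte markers, 7 rose and 1 fell in M90, 9 rose in M10, 6 rose and 2 fell in H90 and 8 rose in H10. Their medians were 1.91, 2.88, 0.77 and 1.30 in the same order. This list holds Fabp6, Slc10a2, Slc51a and Slc51b, which bind or carry bile acids. Fabp6 averaged 10337 CPM in M90, 6604 CPM in M10, 5297 CPM in H90, 7264 CPM in H10 and 61.5 CPM in Vehicle. Whether such genes answered the bile acids directly, rather than marking differentiated cells, was not tested. In M10, 5 of 6 goblet cell markers (median 2.37), 5 of 6 Paneth cell markers (1.15), 6 of 6 enteroendocrine markers (1.17) and 3 of 5 tuft cell markers tested (0.80) rose, and none fell. Whether the markers followed numbers of cells was not tested, nor was the part of these cell types in the changes of the ribosomal genes.

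The M10 mixture gave the broadest change of the mitochondrial ribosome against Vehicle. Of the 76 genes, 59 (77.6%) fell and 2 rose, with a median log2 change of -0.57. Over all 13159 genes tested, 33.3% fell and 31.2% rose, with a median of -0.03. Calls are edgeR quasi-likelihood F tests with a Benjamini-Hochberg adjusted p under 0.05 over all genes tested, called "edgeR adjusted p" below. By at least 1.5-fold, 36 of the 76 genes fell, against 21.5% of all genes, and by at least 2-fold, 7 fell, against 13.1% of all genes. The share of the ribosomal genes past 2-fold was thus below the background, and the change was broad and moderate. All 3 M10 libraries lay below all 3 Vehicle libraries for 58 of the 76 genes, against 35.4% of all genes. With the library set as a term, which rests on H90 alone to separate set from treatment, 46 fell and the median was -0.55. Of the genes named for M10 below, those whose call ended with that term were Mrpl43 (0.15), Mrps15 (0.075), Mrps18b (-0.23) and Mrps6 (-0.41), while Mrps27 (-1.21), Mrps28 (-1.23), Mrpl19 (-1.12), Mrpl49 (-1.16), Mrps22 (-0.87) and Mrpl12 (-0.55) stayed called.

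Among small subunit genes, 21 of 26 fell in M10 and 1 rose, with a median log2 change of -0.62. Mrps27, a small subunit protein of the pentatricopeptide repeat family that binds mitochondrial RNA, had 25.4, 26.5 and 25.1 CPM in M90, 17.1, 17.0 and 12.9 CPM in M10, 40.2, 38.4 and 30.0 CPM in H90, 29.3, 27.5 and 23.8 CPM in H10, and 41.5, 40.7 and 45.5 CPM in Vehicle. Every library of the 4 mixtures lay below the Vehicle libraries, and M10 lay below all other groups. The log2 change of Mrps27 in M10 was -1.43 ± 0.12 (SE, edgeR adjusted p = 1.45e-13), the largest fall of the 76 genes in that comparison. Mrps28, another small subunit protein, had 17.2, 16.8 and 16.3 CPM in M90, 11.8, 10.7 and 7.84 CPM in M10, 22.4, 21.6 and 24.1 CPM in H90, 16.4, 16.1 and 17.9 CPM in H10, and 22.1, 22.4 and 26.1 CPM in Vehicle. M10 was again below every other group, H10 and M90 overlapped each other, and H90 overlapped Vehicle. Its log2 change in M10 was -1.21 ± 0.13 (SE, edgeR adjusted p = 4.95e-10).

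Mrps22, a small subunit protein without a bacterial counterpart whose loss in humans causes a mitochondrial disease, had 19.4, 21.8 and 22.8 CPM in M90, 19.9, 18.9 and 20.1 CPM in M10, 37.7, 35.7 and 31.4 CPM in H90, 24.8, 24.3 and 25.9 CPM in H10, and 39.0, 40.6 and 41.0 CPM in Vehicle. M90 and M10 overlapped for Mrps22, unlike for Mrps27 and Mrps28, and both lay below H10. Its log2 change was -0.91 ± 0.10 in M90 (edgeR adjusted p = 5.92e-10) and -1.04 ± 0.10 in M10 (edgeR adjusted p = 1.58e-11). Mrps26 and Mrps5 also fell by more than 2-fold in M10, with log2 changes of -1.03 and -1.02. Mrps5 is the counterpart of a bacterial protein that helps to keep decoding accurate. Mrps12, the counterpart of the bacterial decoding protein in which streptomycin resistance mutations lie, changed by -0.72 ± 0.10 in M10 (edgeR adjusted p = 1.42e-07). Mrps6, a small subunit protein conserved from bacteria, changed by -0.31 in M10, a call lost without Vehicle a, M10 b or M10 c. Mrps16, whose loss in humans causes a mitochondrial disease, had a log2 change of -0.17 in M10 with an edgeR adjusted p of 0.16 and was not called.

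Of the 49 large subunit genes, 38 fell in M10 and 1 rose, with a median log2 change of -0.56. Mrpl19, a large subunit protein conserved from bacteria, had 19.7, 21.7 and 22.5 CPM in M90, 16, 14.9 and 15.2 CPM in M10, 27.0, 29.1 and 26.1 CPM in H90, 21.0, 20.7 and 19.4 CPM in H10, and 33.6, 29.1 and 35.6 CPM in Vehicle. M10 lay below all other groups and H10 overlapped M90. Its log2 change in M10 was -1.09 ± 0.11 (SE, edgeR adjusted p = 4.72e-11). Mrpl49, a large subunit protein found only in mitochondria, had 41.0, 39.5 and 37.2 CPM in M90, 25, 26.9 and 30.6 CPM in M10, 50.9, 58.2 and 50.7 CPM in H90, 37.9, 41.6 and 35.6 CPM in H10, and 52.5, 58.4 and 60.1 CPM in Vehicle. H90 overlapped Vehicle for this gene, and the other 3 mixtures lay below both. The log2 change of Mrpl49 in M10 was -1.06 ± 0.09 (SE, edgeR adjusted p = 7.14e-13).

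Mrpl12, a protein of the flexible stalk that recruits translation factors and in human cells also binds the mitochondrial RNA polymerase, had 171, 178 and 180.3 CPM in M90, 105, 122 and 119.9 CPM in M10, 163, 169 and 193 CPM in H90, 147, 147 and 148 CPM in H10, and 152, 138 and 168 CPM in Vehicle. M10 was the group that lay below Vehicle, and all M90 libraries lay above it. Its log2 change was 0.21 ± 0.07 in M90 (edgeR adjusted p = 0.00737) and -0.40 ± 0.07 in M10 (edgeR adjusted p = 3.45e-06). Mrpl3, which lies near the site of peptide bond formation, changed by -0.73 in M10, and Mrpl44, a protein with a ribonuclease III fold, changed by -0.94. Mrps18a and Mrps30, which sit in the large subunit despite their names, changed by -0.33 and -0.60. Mrps18b and Mrps18c, the small subunit relatives of Mrps18a, changed by -0.29 and -0.63. All 3 are related to bacterial S18, but Mrps18a and Mrps18b are counted below as found only in mitochondria and Mrps18c as the bacterial homologue. Mrps36, the ketoglutarate dehydrogenase subunit, had a log2 change of 0.11 in M10 and was called in none of the 4 mixtures (lowest edgeR adjusted p = 0.268).

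**Figure D2:**
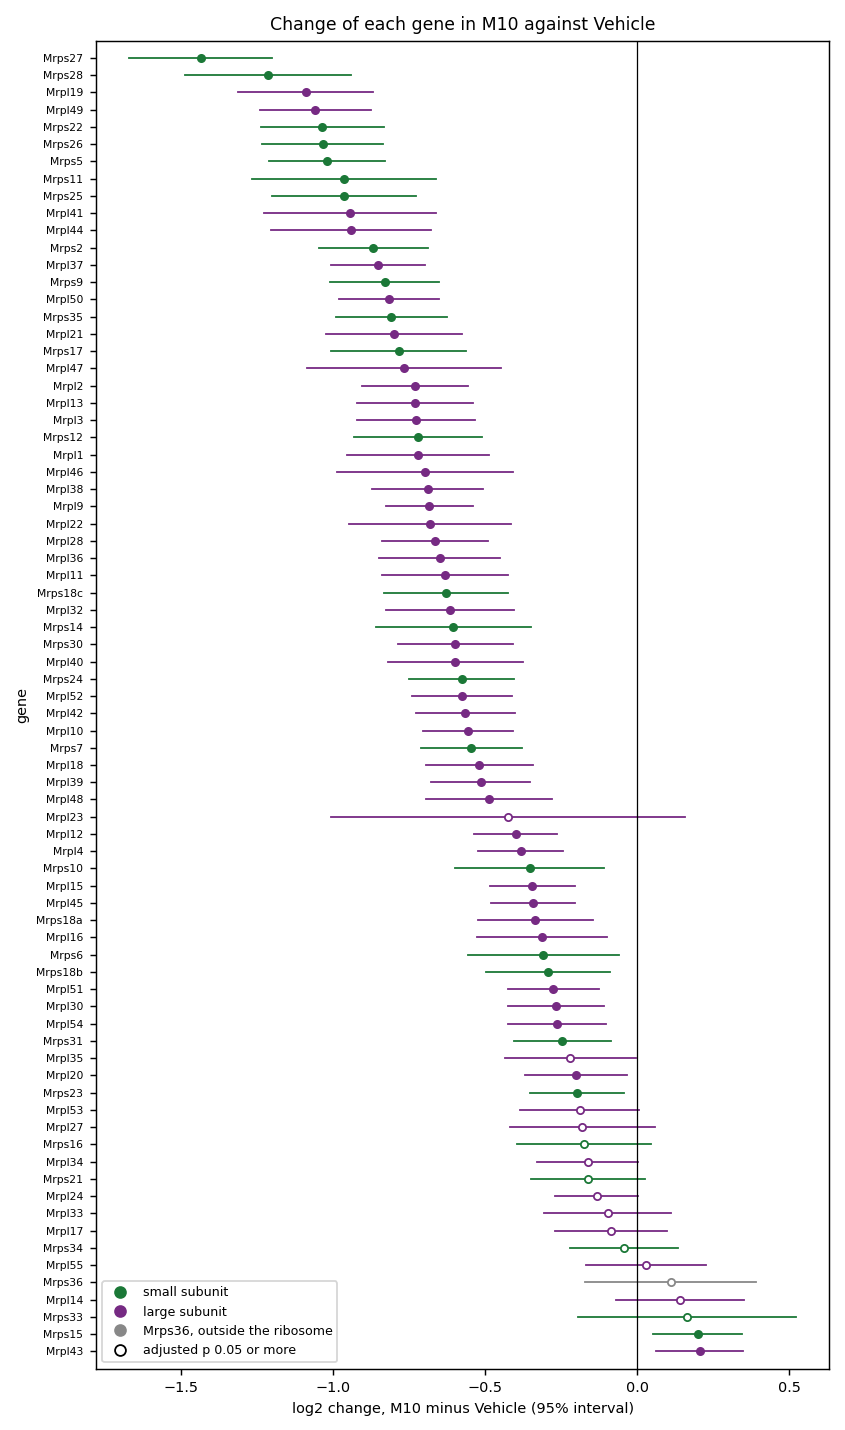
Log2 change of each of the 76 genes in M10 against Vehicle (horizontal axis) with 95% intervals, 1 gene per line, coloured by subunit, with open circles where the adjusted p is 0.05 or more. Most points of both subunits lie left of 0, from Mrps27 at -1.43, and the 2 genes that rose, Mrpl43 and Mrps15, lie at the bottom.

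The ancestry of the proteins gave the following counts. In M10, 13 of 16 small subunit genes with a bacterial homologue and 8 of 10 found only in mitochondria fell, with median log2 changes of -0.62 and -0.55. For the large subunit, 21 of 30 with a bacterial homologue and 17 of 19 found only in mitochondria fell, with medians of -0.47 and -0.57. These groups of genes were not tested against each other.

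A pair of genes rose in every mixture. Mrpl43, a large subunit protein found only in mitochondria, had 67.6, 73.7 and 71.3 CPM in M90, 60.5, 61.6 and 60.3 CPM in M10, 61.7, 67.2 and 60.9 CPM in H90, 68.3, 67.6 and 65.9 CPM in H10, and 52.1, 49.6 and 56.7 CPM in Vehicle. Mrps15, a small subunit protein conserved from bacteria, had 71.5, 77.3 and 80.9 CPM in M90, 61.0, 67.2 and 65.8 CPM in M10, 66.2, 71.5 and 72.8 CPM in H90, 65.3, 64.9 and 62.2 CPM in H10, and 55.5, 53.0 and 60.5 CPM in Vehicle. For both genes every library of the 4 mixtures lay above all Vehicle libraries. Log2 changes of Mrpl43 were 0.43 in M90, 0.20 in M10, 0.26 in H90 and 0.35 in H10, and those of Mrps15 were 0.44, 0.20, 0.31 and 0.19 in the same order (edgeR adjusted p at most 0.0294). With scaling by library size alone their change in M10 turned to -0.059 and -0.066, so the direction in M10 depends on the scaling. The calls in M10 also rest on single libraries: both were lost without Vehicle b and under upper-quartile scaling, and that of Mrps15 also without Vehicle a or M10 b. In H10 the call of Mrps15 was lost without Vehicle a, Vehicle b, H10 a or H10 b, and in H90 that of Mrpl43 without Vehicle b or H90 b. Mrps2, a small subunit protein conserved from bacteria, was the 1 gene that fell in all 4 mixtures, with 37.5, 40.4 and 38.3 CPM in M90, 25.9, 28.3 and 28.8 CPM in M10, 46.3, 38.4 and 40.8 CPM in H90, 40.7, 40.1 and 38.5 CPM in H10, and 46.5, 50.2 and 54.2 CPM in Vehicle. A further 29 genes fell in 3 mixtures, 15 in 2 and 14 in 1, and 17 fell in none. The same tally was not made over all genes tested. All 4 comparisons use the same 3 Vehicle libraries, so calls in several mixtures are not independent of each other.

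**Figure D3:**
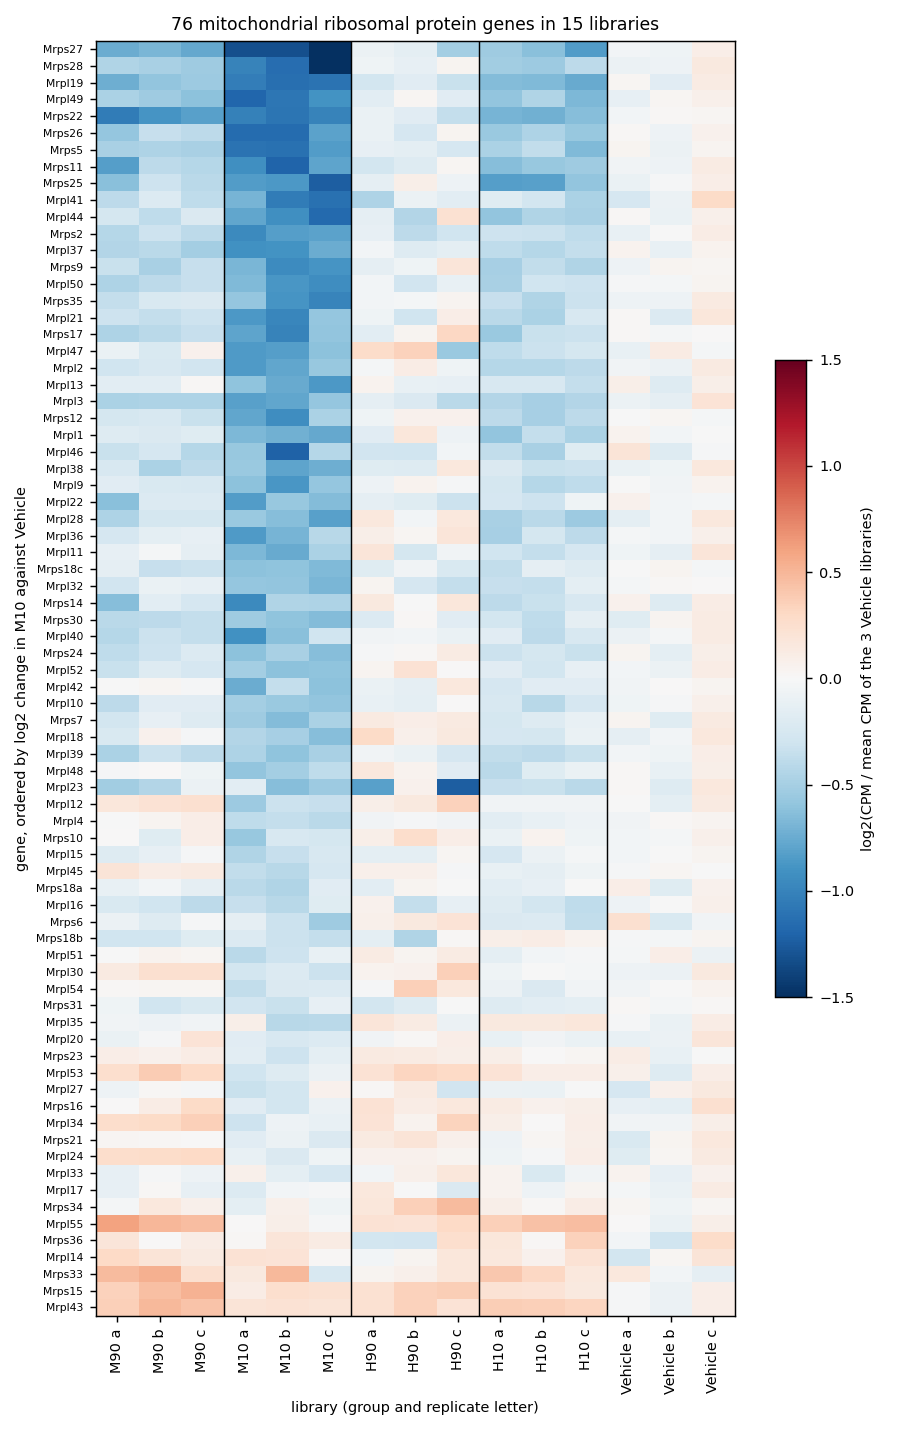
Level of the 76 genes (lines, ordered by change in M10) in the 15 libraries (columns), as log2 of CPM over the mean of the Vehicle libraries, with the colour scale ending at 1.5 either way. M10 columns are darkest blue, H90 columns are close to the Vehicle columns, and Mrpl43, Mrps15 and Mrpl55 are red in most mixtures.

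Promoters are shown for Mrps27, Mrps22, Mrpl49 and Mrps11, which fell, and for Mrpl43, which rose. Every printed window holds letters marked below, so the windows are not a sample of the 76 genes. RefSeq start sites of the GRCm38.p6 build were found for 67 of the 76 genes, and the 250 bases before the start are printed 5′ to 3′ on the strand of the gene. Capitals mark CCGGAAG, the core bound by ETS factors such as GABP, or AAGATGG, the core bound by YY1, on either strand. Mrps27 (protein-coding, plus strand of chromosome 13) has the window chr13:99344536-99344785, Mrps22 (minus strand of chromosome 9) chr9:98601680-98601929, Mrpl49 (minus strand of chromosome 19) chr19:6057756-6058005, Mrps11 (plus strand of chromosome 7) chr7:78782881-78783130 and Mrpl43 (minus strand of chromosome 19) chr19:45006443-45006692.
Mrps27: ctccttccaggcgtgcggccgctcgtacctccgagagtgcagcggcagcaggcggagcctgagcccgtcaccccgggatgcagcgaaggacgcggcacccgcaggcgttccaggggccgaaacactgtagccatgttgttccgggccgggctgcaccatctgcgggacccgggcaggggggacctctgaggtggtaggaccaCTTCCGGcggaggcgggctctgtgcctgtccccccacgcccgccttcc
Mrps22: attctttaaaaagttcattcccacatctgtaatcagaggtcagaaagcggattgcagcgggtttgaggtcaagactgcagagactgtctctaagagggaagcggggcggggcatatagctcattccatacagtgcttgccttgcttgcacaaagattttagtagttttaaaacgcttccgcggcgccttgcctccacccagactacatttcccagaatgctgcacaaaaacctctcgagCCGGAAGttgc
Mrpl49: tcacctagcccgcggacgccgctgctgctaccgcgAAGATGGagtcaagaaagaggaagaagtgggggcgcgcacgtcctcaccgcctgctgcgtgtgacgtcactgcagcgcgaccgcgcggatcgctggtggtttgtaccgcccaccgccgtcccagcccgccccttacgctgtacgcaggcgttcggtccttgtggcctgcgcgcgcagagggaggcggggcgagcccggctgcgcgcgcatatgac
Mrps11: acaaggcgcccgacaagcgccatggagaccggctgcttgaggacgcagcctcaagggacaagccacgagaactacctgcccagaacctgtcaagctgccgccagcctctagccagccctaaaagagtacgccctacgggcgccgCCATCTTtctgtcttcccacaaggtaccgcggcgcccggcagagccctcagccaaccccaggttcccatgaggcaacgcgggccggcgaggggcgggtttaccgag
Mrpl43: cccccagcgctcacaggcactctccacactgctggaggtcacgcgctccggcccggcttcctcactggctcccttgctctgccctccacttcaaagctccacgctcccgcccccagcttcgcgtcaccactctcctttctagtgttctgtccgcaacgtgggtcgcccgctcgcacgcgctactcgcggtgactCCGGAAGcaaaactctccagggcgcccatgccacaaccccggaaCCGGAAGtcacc

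In the printed bases Mrps27, Mrps22 and Mrpl43 hold the ETS letters and Mrpl49 and Mrps11 the YY1 letters. Mrps27 also holds the YY1 letters in the bases after its start. Both kinds are thus seen in genes that fell, and the ETS letters also in a gene that rose. Mrps15, which also rose in every mixture, and Mrps25, which fell most in H10, hold neither kind. The same holds for Mrps5 and Mrpl44, which fell in M10. Windows of 250 bases before to 50 after the start were searched, and a gene counts if any of its listed promoters holds the letters. CCGGAAG on either strand was found in 24 of 67 ribosomal genes (35.8%), in 19.3% of the 9799 tested genes with a promoter and in 9.93% of all 27025 genes with a promoter. AAGATGG was found in 13 of 67 (19.4%), in 8.42% of tested genes and in 7.28% of all genes with a promoter. GCGCATGC, letters bound by NRF1, was found in 8 of 67 (11.9%), in 5.87% of tested genes and in 3.05% of all. CACGTG, the E-box bound by MYC among other factors, was found in 5 of 67 (7.46%), in 11.8% of tested genes and in 8.09% of all. The ETS letters were in 15 of 51 genes that fell in M10 (29.4%) and in 9 of 16 that did not (56.2%), and the YY1 letters in 12 (23.5%) and 1 (6.25%) of the same genes. Any of the 4 kinds of letters was found in 38 of 67 ribosomal genes (56.7%) and in 38% of tested genes. Matches to different motifs may overlap, and these shares are descriptions of letters with no test.

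Beyond M10, the next broad changes were in H10 and M90. In M90, 37 of the 76 genes (48.7%) fell and 9 (11.8%) rose, with a median log2 change of -0.19, where 28.5% of all genes fell and 26.2% rose with a median of -0.02. All 3 M90 libraries lay below Vehicle for 38 genes, against 33.8% of all genes. The count in M90 rests in part on Vehicle c, the Vehicle library with the highest share of these messages: without it 24 fell. With the library set as a term, 12 fell and 2 rose and the median was -0.22. Of the genes named for M90, Mrps22 (-0.75), Mrpl19 (-0.65), Mrpl49 (-0.64), Mrps11 (-0.73), Mrpl55 (0.49) and Mrpl43 (0.37) stayed called with that term. The calls of Mrps27 (-0.51), Mrps28 (-0.51), Mrps2 (-0.15), Mrps15 (0.32), Mrpl12 (0.056), Mrps33 (0.35), Mrpl53 (0.22), Mrpl34 (0.32), Mrpl30 (0.057) and Mrpl24 (0.29) ended. In M90, 18 of 26 small subunit genes and 19 of 49 large subunit genes fell, and 2 and 7 rose.

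Genes that fell most in M90 were Mrps22 (-0.91), Mrps27 (-0.73), Mrpl19 (-0.62), Mrpl49 (-0.54), Mrps11 (-0.53) and Mrps28 (-0.49). Mrps11, a small subunit protein conserved from bacteria, had 10.5, 14.2 and 13.9 CPM in M90, 9.80, 8.07 and 10.8 CPM in M10, 15.4, 16.3 and 19.0 CPM in H90, 12.0, 12.5 and 12.8 CPM in H10, and 18, 17.6 and 20.2 CPM in Vehicle. M90 overlapped M10 and H10, and all 3 lay below H90. Without Vehicle b, 5 genes rose in M90. The 9 called with all libraries were Mrpl55, Mrps15, Mrpl43, Mrps33, Mrpl53, Mrpl34, Mrpl30, Mrpl24 and Mrpl12, with log2 changes of 0.21 to 0.53. The calls of Mrps33 and Mrpl30 were each lost without any 1 of 4 libraries, Vehicle b among them. Mrpl55, a large subunit protein with a bacterial counterpart, had 36.4, 33.9 and 33.2 CPM in M90, 24.1, 25.6 and 23.6 CPM in M10, 27.9, 27.8 and 29.5 CPM in H90, 30.8, 32.5 and 32.9 CPM in H10, and 24.1, 22.4 and 25.5 CPM in Vehicle. M90 lay above all other groups, and M10 overlapped Vehicle.

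In H10, 38 of the 76 genes fell and 3 rose, with a median log2 change of -0.26, where 24.5% of all genes fell and 24.0% rose with a median of -0.0040. All 3 H10 libraries lay below Vehicle for 44 genes, against 30.8% of all genes. H10 and Vehicle belong to the same library set, and within it 45 fell and 3 rose. The largest falls in H10 were those of Mrps25 (-0.74), Mrps22 (-0.68), Mrpl19 (-0.68), Mrps27 (-0.67), Mrps11 (-0.58) and Mrpl49 (-0.58). Mrps25, a small subunit protein found only in mitochondria, had 21.4, 26.7 and 25 CPM in M90, 18.4, 18.2 and 14.1 CPM in M10, 30.0, 35.0 and 31.3 CPM in H90, 18.5, 18.8 and 22 CPM in H10, and 30.9, 32.7 and 35.4 CPM in Vehicle. H90 overlapped Vehicle for Mrps25, and H10 lay between M10 and H90. Mrpl55 (0.42), Mrpl43 (0.35) and Mrps15 (0.19) were the 3 that rose.

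Few of these genes were called in H90. There, 1 of the 76 genes fell and 5 rose, with a median log2 change of -0.02, where 9.86% of all genes fell and 11.7% rose with a median of -0.01. All 3 H90 libraries lay below Vehicle for 9 genes, against 17.9% of all genes. The gene that fell was Mrps2 (-0.26, not called without Vehicle b, Vehicle c, H90 b or H90 c), and those that rose were Mrps34 (0.34), Mrps15 (0.31), Mrpl53 (0.28), Mrpl43 (0.26) and Mrpl12 (0.20). Mrps34, which the small subunit needs to be stable, had 39.6, 45.2 and 42.7 CPM in M90, 36.5, 42.5 and 38.5 CPM in M10, 45.6, 52.0 and 56.2 CPM in H90, 42.9, 41.1 and 43.8 CPM in H10, and 41.1, 38.8 and 41.4 CPM in Vehicle. These few calls depend on the libraries: the count that rose was 2 without Vehicle b and 3 without H90 c, and edgeR called none with the library set as a term. H90 a alone against Vehicle, within set 1, gave 1 gene that rose.

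For the mean of the 4 mixtures, 46 of the 76 genes (60.5%) fell and 3 rose, with a median log2 change of -0.27, where 30.3% of all genes fell and 27.7% rose with a median of -0.01. M10 had the lowest group mean for 69 of the 76 genes. Vehicle had the highest for 37, H90 for 22, M90 for 13 and H10 for 4. The most common orders, each in 16 genes, were M10, H10, M90, H90, Vehicle and M10, M90, H10, H90, Vehicle from low to high. M90 and H10 were thus neighbours in both, and for Mrps28 and Mrpl19 named above they overlapped. Neither the lowest and highest group means nor the orders were counted over all genes tested.

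Within each species model the 90% share gave higher levels than the 10% share. In M90 against M10, 57 of the 76 genes (75%) were higher, with a median log2 difference of 0.36, where 21.3% of all genes were higher and 20.0% lower with a median of 0.04. By edgeR none were lower, also at an unadjusted p under 0.05 and by DESeq2 and limma-voom. Both groups belong to set 2, and within it 51 were higher. Mrps28 (0.72), Mrps27 (0.70), Mrpl47 (0.68), Mrpl44 (0.66), Mrpl13 (0.64) and Mrpl41 (0.62) differed most. Mrpl13, a large subunit protein conserved from bacteria, had 42.2, 42.4 and 47.9 CPM in M90, 31.1, 28.0 and 25.9 CPM in M10, 48.9, 43.6 and 43.3 CPM in H90, 40.0, 40.0 and 36.8 CPM in H10, and 50.2, 41.2 and 50.2 CPM in Vehicle. M90 overlapped Vehicle for Mrpl13, and M10 was below every other group.

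In H90 against H10, 35 of the 76 genes (46.1%) were higher and 1 was lower, with a median log2 difference of 0.22, where 18.2% of all genes were higher and 18.4% lower with a median of 0.01. With the library set as a term 22 were higher, and with H90 a as the lone H90 library of set 1, 30 were. Mrps25 (0.70), Mrpl28 (0.57), Mrps22 (0.49), Mrpl36 (0.48), Mrpl49 (0.48) and Mrps17 (0.46) differed most, and Mrps18b was the gene that was lower (-0.27, not called without H90 b or any 1 of the H10 libraries). Mrpl28, a large subunit protein conserved from bacteria, had 46.0, 52.5 and 52.6 CPM in M90, 43.0, 40.5 and 36.0 CPM in M10, 70.3, 61.2 and 70.3 CPM in H90, 45.0, 47.8 and 43.4 CPM in H10, and 57.2, 61.5 and 70.6 CPM in Vehicle. H90 lay above H10 and overlapped Vehicle. M90 minus M10 and H90 minus H10 share no library. Of the genes higher in each, 30 were higher in both, which is 52.6% of the 57 of the mouse model and 85.7% of the 35 of the human model. Of all 76 genes, 75% were higher in M90 over M10 and 46.1% in H90 over H10, so a large overlap is given by these shares. The same overlap was not counted over all genes tested.

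**Figure D4:**
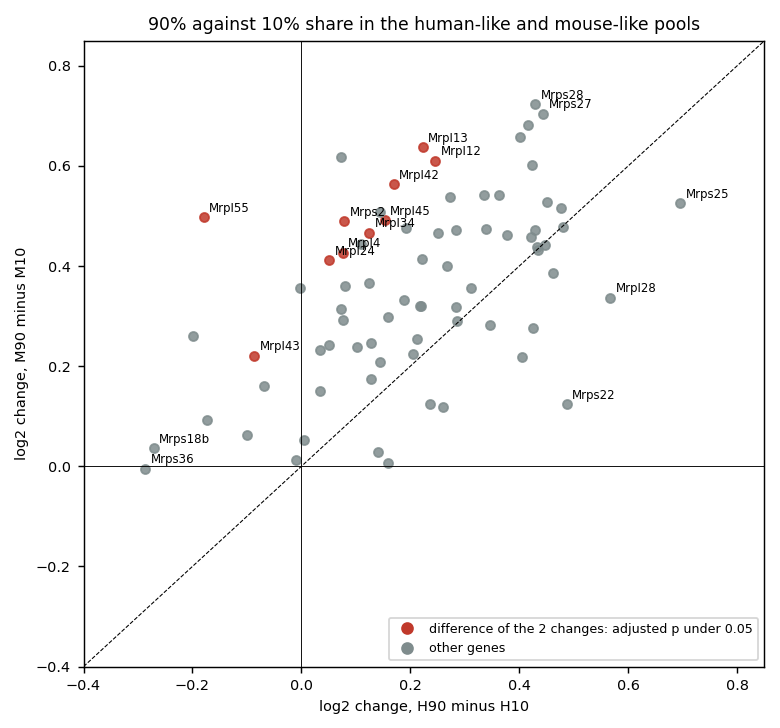
Log2 difference of M90 minus M10 (vertical axis) against H90 minus H10 (horizontal axis) for the 76 genes, with the dashed line at equal differences and the 10 genes whose 2 differences differ (adjusted p under 0.05) in red. Most genes lie right of and above 0, 66 of 76 above 0 in both, a count not made over all genes tested. The red genes lie above the line, Mrpl55 farthest at -0.18 and 0.50.

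At the same share, the mouse model gave lower levels than the human model. In M10 against H10, 53 of the 76 genes (69.7%) were lower, with a median log2 difference of -0.31, where 18.1% of all genes were lower and 18.2% higher with a median of -0.02. By edgeR none were higher, also at an unadjusted p under 0.05 and by DESeq2 and limma-voom. M10 and H10 belong to different library sets, and with the set as a term 12 were lower, with a median of -0.33. In M90 against H90, 29 of the 76 genes (38.2%) were lower and 2 higher, with a median log2 difference of -0.15, where 19.5% of all genes were lower and 19.2% higher with a median of -0.01. Within set 2, 18 were lower, and without M90 a, 16. Mrps22 (-0.71), Mrps27 (-0.51) and Mrps17 (-0.46) were furthest below H90 in M90, and Mrpl55 (0.28) and Mrpl24 (0.22) were above it, of which 1 was called without H90 a or M90 a.

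The effect of the share differed between the species models for 10 of the 76 genes (13.2%), all with a larger difference in the mouse model, where 7.85% of all genes tested gave a difference in that direction and 6.92% in the other. By edgeR none of the 76 differed the other way, against 1 at an unadjusted p under 0.05, 1 by DESeq2 and none by limma-voom. Mrpl55 differed most, with 0.50 ± 0.10 for M90 minus M10, -0.18 ± 0.10 for H90 minus H10 and 0.68 ± 0.14 for the difference of these (SE, edgeR adjusted p = 0.000432). With the library set as a term 6 genes were called, and without H10 a also 6.

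Genes that work with the mitochondrial ribosome were counted in the same way. Of 6 mitochondrial ribosomal proteins with other symbols, 3 fell and 1 rose in M90, and 5 fell in M10. Ptcd3, a small subunit protein, had 26.3, 28.9 and 26.8 CPM in M90, 17.7, 20.3 and 16.6 CPM in M10, 45.4, 42.6 and 41.1 CPM in H90, 31.1, 31.7 and 31.5 CPM in H10, and 53.0, 51.8 and 49.9 CPM in Vehicle. It fell in each mixture without overlap with Vehicle, with a log2 change of -1.5 ± 0.09 in M10 (SE, edgeR adjusted p = 8.35e-17). In M10, Gadd45gip1, a large subunit protein, fell by 1.02, Dap3, a small subunit protein that binds GTP, by 0.67, Chchd1 by 0.50 and the peptide-release factor Ict1 by 0.29 on the log2 scale, and Aurkaip1 was not called (-0.09). Mrp63, the older symbol of a large subunit protein and added after its values were seen, fell by 0.66 on that scale.

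Of 26 tested factors that assemble the mitochondrial ribosome, 15 fell in M10, with a median log2 change of -0.54. Noa1, a GTPase of small subunit assembly, had 10.3, 14.4 and 15.5 CPM in M90, 7.73, 7.13 and 7.74 CPM in M10, 24.8, 28.3 and 21.2 CPM in H90, 15.8, 12.8 and 16 CPM in H10, and 32.3, 34.9 and 38.3 CPM in Vehicle. Its log2 change in M10 was -2.22 ± 0.15 (SE, edgeR adjusted p = 3.59e-16), larger than that of any of the 76 ribosomal genes. Rnmtl1, which methylates the large subunit RNA, changed by -2.45 in M10, Gtpbp10, a GTPase of large subunit assembly, by -1.15 and the RNA helicase Dhx30 by -0.63.

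Of 20 mitochondrial aminoacyl-tRNA synthetases and related enzymes, which charge the transfer RNAs, 19 fell in M10 with a median of -0.81. Yars2 (-1.65), Mars2 (-1.49) and Iars2 (-0.82), which load tyrosine, methionine and isoleucine, were among them. Of 18 translation factors, 12 fell and 1 rose in M10, with a median of -0.44, among them the elongation factors Tsfm (-1.73) and Gfm1 (-0.67), the formyl-removing enzyme Pdf (-1.10) and Lrpprc (-0.96), which stabilises mitochondrial messages. The 1 that rose was Mtfmt (0.29), which puts the formyl group on the starting methionine. Of 15 genes that copy, maintain and transcribe mitochondrial DNA, 12 fell and 2 rose in M10, with a median of -1.01. Mgme1 (-2.13), a nuclease of mitochondrial DNA, the DNA helicase Peo1 (-1.36) and Elac2 (-1.35), which trims transfer RNA ends, were among those that fell.

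Transcriptional regulators of mitochondrial genes, in the nucleus or in mitochondrial DNA, split. Tfam, which packs mitochondrial DNA and starts its transcription, had 33.2, 32.2 and 33.5 CPM in M90, 24.7, 21.5 and 28.2 CPM in M10, 46.0, 44.1 and 44.4 CPM in H90, 32.8, 31.2 and 32.7 CPM in H10, and 59.4, 61.5 and 54.1 CPM in Vehicle. All mixtures lay below Vehicle for Tfam, and M10 was lowest. Myc, a growth regulator that raises ribosome genes, had 19.6, 22.4 and 26.5 CPM in M90, 33.3, 26.5 and 24.7 CPM in M10, 48.7, 45.2 and 52.1 CPM in H90, 25.9, 29.6 and 29.4 CPM in H10, and 53.2, 52.3 and 57.8 CPM in Vehicle. M90 was the lowest group by mean for Myc, unlike for most of the ribosomal genes. For the mean of the mixtures, Myc changed by -0.83, Mycn by -3.15, Pprc1 by -0.82, Gabpb2 by -0.50, Nrf1 by -0.29 and Gabpa by -0.23, while Ppargc1b (0.43), Ppargc1a (0.36) and Esrra (0.25), regulators of respiration, rose. Gabpb1 and Yy1 were not called for the mean.

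A pair of related families were counted beside them. Cytosolic ribosomal proteins, made for the ribosomes outside mitochondria, fell in 52 of 78 genes in M90 and 75 of 78 in M10, with median log2 changes of -0.18 and -0.71. Nuclear-encoded subunits of the respiratory chain and ATP synthase rose in 59 of 72 genes in M90 and 22 of 72 in M10, where 7 fell, with medians of 0.31 and 0.08. Over all genes tested, 26.2% rose and 28.5% fell in M90, and 31.2% rose and 33.3% fell in M10. The count of respiratory chain genes that rose in M10 was thus near the share of all genes. In both mixtures the median of the mitochondrial ribosomal genes (-0.19 and -0.57) lay closer to that of the cytosolic ribosomal proteins. The lists were not tested against each other.

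**Figure D5:**
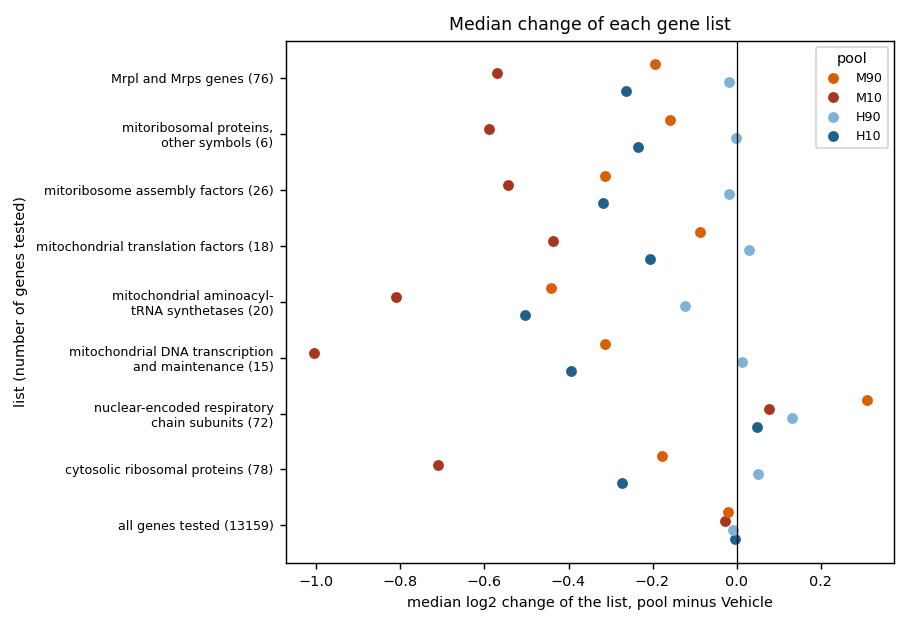
Median log2 change against Vehicle (horizontal axis) of 8 gene lists and of all genes tested (lines, with the number of genes), 1 point per mixture. In M10 every list with a part in translation or mitochondrial DNA lies left of -0.4, while the respiratory chain subunits lie right of 0 in all 4 mixtures.

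Levels per length, in TPM (counts per exon length, scaled to a common total) over all libraries with exon lengths of GENCODE vM21, ran from 2.44 to 323 with a median of 56.9. The highest were Mrpl12 (198 to 416 TPM), Mrpl34 (187 to 332 TPM), Mrpl54 (169 to 322 TPM), Mrps21 (124 to 198 TPM) and Mrpl52 (95.2 to 198 TPM). The lowest were Mrpl23 (1.31 to 3.77 TPM), Mrps10 (5.00 to 10.3 TPM), Mrpl47 (6.87 to 18.3 TPM), Mrps25 (6.26 to 19.4 TPM) and Mrpl48 (8.23 to 16.5 TPM). Ranges of neighbours within these groups of 5 overlap, except that the highest value of Mrpl23 lies below the lowest of Mrps10. The annotation also holds copies named as pseudogenes of Mrpl23, Mrpl48 and Mrps36, so reads of these 3 genes could be split and their levels are uncertain. Mrps25 shares 69.8% of its exon bases with Nr2c2, and Mrpl47 10.2% with Actl6a and 13.9% with Ndufb5. How reads on shared bases were counted is not given, so the low levels of Mrps25 and Mrpl47 are uncertain too. The order depends on the length used: by the longest transcript Mrpl24 replaced Mrpl52 among the 5 highest, and Mrpl19 replaced Mrpl48 among the 5 lowest.

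Exons of 12 of the 76 genes share at least 10% of their bases with another gene in the files, and the strand setting of the counting is not given. Mrps25 shares 69.8% with Nr2c2, Mrps34 63.4% with Mapk8ip3 and 37.0% with Nme3, Mrpl19 36.0% with Gcfc2, Mrpl43 33.4% with Peo1, Mrpl24 26.3% with Rrnad1 and Mrps27 24.2% with 6430562O15Rik. Mrpl43 rose while Peo1, the mitochondrial DNA helicase on the other strand, changed by -1.36 in M10, and Mrpl19 and Gcfc2 both changed by -1.09 there. Mapk8ip3 rose in H90 (0.42), where Mrps34 rose by 0.34, and also in M10 (1.33), where Mrps34 was not called. Nr2c2 fell in H10 (-0.37), where Mrps25 had the largest fall, and also in H90 (-0.38), where Mrps25 was not called. The part of shared reads in these changes was not tested. Of the 64 genes without such overlap, 51 fell and 1 rose in M10, with a median log2 change of -0.57.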

How the data were processed

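RNA of 15 organoid libraries was sequenced after poly-A selection and TruSeq preparation, per the labels' protocols. Per the submitters' processing notes, the tools were featureCounts 1.5.0-p3, STAR 2.5.2b and bcl2fastq 2.17, and the builds GRCm38 and mm10. The authors deposited raw counts per gene symbol, 1 file per library, with no normalization. Strand setting, annotation and handling of multimapping reads are not given in the sources used here.

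Genes were kept by filterByExpr (13159 of 23420), scaled by TMM and tested with edgeR 4.0.16 quasi-likelihood F tests (robust, two-sided) with a mean for each of the 5 groups in a single model (residual df 10). A call is an adjusted p under 0.05, by Benjamini and Hochberg's method (Benjamini-Hochberg) across every gene of a contrast. The biological coefficient of variation was 0.0881. Intervals and standard errors hold the spread between libraries. CPM are TMM-scaled, except for Mup20, Rn45s, Fabp6, Epcam, Cdh1 and the liver, fibroblast and immune markers, which use plain totals. TPM divide counts by the union of GENCODE vM21 exons, which had all 76 symbols. Promoters come from RefSeq (GRCm38.p6) and motifs were matched as exact letters. The steps were tested on simulated data.

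The members, lists and alternatives were chosen with earlier results of these data known. Named genes are the 6 largest called changes each way per contrast (4 for the interaction), the 5 highest and 5 lowest per length, genes of known role, calls against the majority, and up to 4 genes per list. Mrps5 in M10, Mki67, Mtfmt and Mrp63 were picked with their values in view. The alternatives were other scalings and filters, DESeq2 1.42.0, limma-voom 3.58.1, each contrast's groups alone, a replicate block, the library set and leaving out each library. R 4.3.3, python 3.11.15 and matplotlib 3.10.9 were used. Some items are not reported here.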

Additional observations from a re-analysis of the deposited data

Results flagged for a closer look

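The effect of the 90% against the 10% share differed between the mouse and human models (edgeR quasi-likelihood test of the difference itself, Benjamini-Hochberg adjusted p under 0.05) for 10 of the 76 genes, each time with the larger value for M90 minus M10. The differences on the log2 scale were 0.68 for Mrpl55, 0.42 for Mrpl13, 0.41 for Mrps2, 0.39 for Mrpl42, 0.36 for Mrpl12, 0.36 for Mrpl24, 0.35 for Mrpl4, 0.34 for Mrpl34, 0.34 for Mrpl45 and 0.31 for Mrpl43. The edgeR adjusted p ran from 0.000432 for Mrpl55 to 0.0388 for Mrpl34. For Mrpl55 and Mrpl43 the 2 differences also had opposite signs, 0.50 and 0.22 for M90 minus M10 against -0.18 and -0.09 for H90 minus H10, of which the human model's were not called. Over all genes tested, 7.85% were called with the larger value for M90 minus M10 and 6.92% the other way. With the library set as a term, 6 of the 76 genes were called. Of the 10 genes, 9 belong to the large subunit and 1, Mrps2, to the small, where 49 of the 76 genes are large and 26 small subunit genes. Leaving out 1 library at a time ended the call of Mrpl13 in 5 cases (H10 a, H10 b, H90 b, M10 c or M90 c), of Mrps2 in 4 (H10 a, H90 b, M10 a or M90 b) and of Mrpl42 in 1 (M10 a), and none for Mrpl55; the other 6 were not followed one by one.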

How the results depend on the processing

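Counts of called genes in the more common direction stayed within 1.5 times of those reported for H10 minus Vehicle, M10 minus Vehicle, the mean of the mixtures and M90 minus M10 under every alternative run. Elsewhere, with the library set as a term, M90 minus Vehicle gave 12 lower, H90 minus Vehicle 0 higher, H90 minus H10 22 higher, M10 minus H10 12 lower and the interaction 6 higher, while within set 2 alone M90 minus H90 gave 18 lower and within set 1 alone H90 minus Vehicle gave 1 higher. Scaling by library size gave 3 higher for H90 minus Vehicle, moved the median of all genes by -0.13 to -0.29 in H10, M90 and M10, and turned Mrpl43 and Mrps15 in M10 to -0.059 and -0.066. Leaving out 1 library at a time gave 26 to 41 lower for H10 minus Vehicle, 57 to 61 for M10, 24 to 38 for M90 (lowest without Vehicle c), 39 to 48 for the mean, 38 to 54 for M10 minus H10 and 16 to 30 for M90 minus H90 (lowest without M90 a), and 2 to 7 higher for H90 minus Vehicle (lowest without Vehicle b), 28 to 37 for H90 minus H10, 48 to 59 for M90 minus M10 and 6 to 13 for the interaction (lowest without H10 a). The cause of these shifts was not tested. Letters a, b and c are not stated to pair libraries, and residual profiles of the same letter correlated by -0.0237 to 0.0829, though for 11 of 15 the best correlation was with their own letter. Of 140 values of named genes, 35 lost their call with the library set as a term; scaling by library size ended 13 calls, added 13 and reversed 2. With the letters as a replicate block, 140 of 140 kept direction and call, and 60 genes fell in M10. Counts limit genes such as Mrpl23, at 1.95 to 5.12 CPM, whose change of -0.42 in M10 had an SE of 0.29.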
